A study of Eragrostis tef with 16 samples.

Results

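Low calcium lowered a small set of transcripts in both roots and shoots of tef (Eragrostis tef), and these are described here. A gene was taken when its mean was at least 2 CPM (a count scaled to its library's total) in control roots and in control shoots, when every low calcium library lay below every control library in each tissue, and when the ratio of low calcium to control was at most 0.67 in each tissue. The ratio was computed with 0.5 CPM added to both means. Of 68255 genes in the count table, 25060 reached 2 CPM in both control groups, and 154 met every condition (0.615% of them). Of the 25060 genes, 10.4% had every LCR library below every ConR library (roots), 8.44% had every LCS library below every ConS library (shoots) and 1.96% had both, where LC stands for low calcium and Con for control. The 150 with the smallest ratios were kept, ranked by the larger of the root and the shoot ratio, and 4 genes that the study had already named as calcium genes were set aside. This left 146 members.

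The plants were of the single tef accession that had the highest seed calcium in an earlier survey by the same group. They were grown in aerated hydroponics with either 1 mM Ca (control) or 0.01 mM Ca (low calcium) for about a month, in a modified Hoagland solution in which ammonium nitrate replaced calcium nitrate. Roots and shoots gave 4 groups of 4 libraries each, namely low calcium roots (LCR, S1 to S4), low calcium shoots (LCS, S5 to S8), control roots (ConR, S9 to S12) and control shoots (ConS, S13 to S16). The study describes the libraries of a group as independent biological replicates. The sources used here do not say how many plants went into a library, or whether a root and a shoot library share plants. The root libraries held 6276818 to 10166944 counts at low calcium and 11587068 to 17659238 at control. The shoot libraries held 9959542 to 11720368 and 14640539 to 15590039, so that every low calcium library was shallower than every control library of its tissue. In a whole root or shoot, fewer cells of a type and less RNA per cell cannot be told apart.

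Calcium holds the pectin of plant cell walls together and stabilises membranes, and brief rises of free calcium in the cytosol carry signals of stress and development. Pumps, exchangers and channels keep the cytosolic concentration low, and calcium-binding proteins and kinases read the signal. Calcium moves to the shoot in the xylem and is hardly remobilised from old leaves, which is why growing tissues are the first to run short. Tef is an allotetraploid grass with an A and a B subgenome, and the gene identifiers carry the chromosome and the subgenome. The count table pairs no identifier with a gene name, and the study names only a limited set of calcium and metal genes, so the members are given by identifier and no role is assigned to them. For the same reason the tissue labels were not checked against marker genes.

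The members were chosen for their fall under low calcium, so the size of that fall is a description and was not tested. The median ratio over the 146 members was 0.582 in roots and 0.576 in shoots, where the medians over all 25060 genes at 2 CPM or more were 0.920 and 1.03. The root ratios lay between 0.218 and 0.662, the shoot ratios between 0.113 and 0.666. Both ratios were at or below 0.5 for 14 members. The fall was the weaker one in roots for 69 members and in shoots for 77, and the tissues differed by more than 1.5 times in 12 members, of which 6 fell more in shoots and 6 more in roots. Those with the lower shoot ratio were Et_8B_059382, Et_6A_046491, Et_9B_065531, Et_4B_037185, Et_4A_032459 and Et_6A_048176, and those with the lower root ratio were Et_4B_037643, Et_2A_016801, Et_3A_024126, Et_1A_009508, Et_9A_062429 and Et_5A_042906. For the other members the root and shoot ratios were within 1.5 times of each other. The limit on the larger ratio narrows this difference. The 0.5 CPM added to both means also changes it in members at low levels. These ratios are on column sums. With TMM scaling factors, as in the edgeR fit below, the members' median log2 fold change was -0.84 in roots and -1.04 in shoots. The genes at 2 CPM or more had -0.13 and -0.16. The near-equal medians and the even split of the weaker falls therefore apply to column sums.

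**Figure D1:**
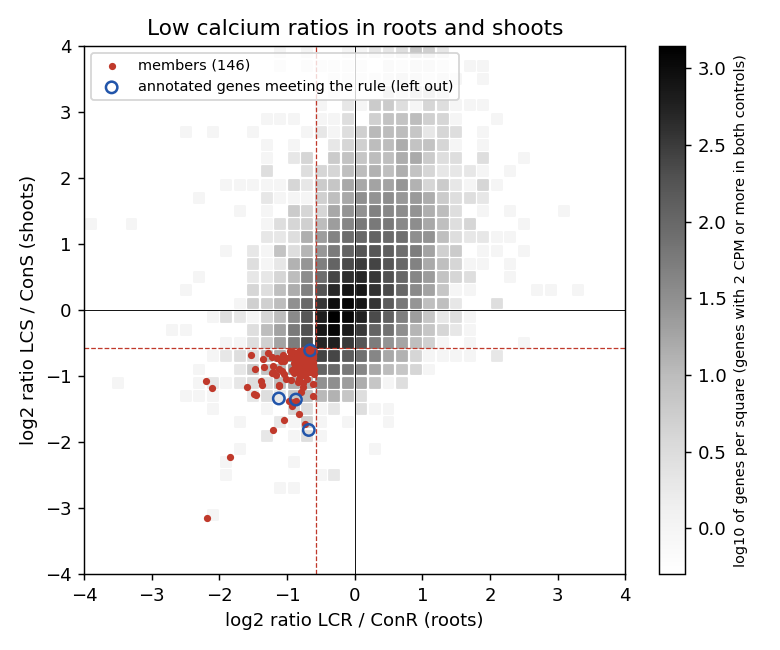
Log2 ratio of low calcium to control in roots (x axis) against shoots (y axis) for genes with 2 CPM or more in both control groups (grey squares, darker for more genes), the 146 members (red) and the 4 annotated genes that met the rule (blue rings). The dashed lines mark the limit of 0.67, and most members sit close to it, with a median ratio of 0.582 in roots and 0.576 in shoots.

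The separation of the libraries was often narrow. The lowest ConR library was a median 1.21 times the highest LCR library, and the lowest ConS library 1.17 times the highest LCS library. This gap was under 1.1 times for 31 members in roots and 42 in shoots, and over 2 times for 4 members in each tissue. At the end of the ranking, Et_7B_054751 and Et_3A_026747 had larger ratios of 0.665 and 0.666 and were the last inside the list, while Et_3B_030286 and Et_1A_008223, at 0.667 and 0.668, were the first outside. In an edgeR quasi-likelihood fit over all genes, 72 of the 146 members (49.3%) passed an adjusted p of 0.05 as lower in LCR than ConR, against 1.34% of the 56746 genes tested and 2.19% of the genes at 2 CPM or more. None passed as higher, against 1.9% and 1.93%. In LCS against ConS all 146 passed as lower, against 9.05% and 17.3%, and none as higher, against 16.7% and 10.8%. No member was higher at an unadjusted p of 0.05 either. The count of 72 in roots fell to between 14 and 30 without LCR S1, S2 or S4 or ConR S9, S10 or S12, and was 128 when only the root libraries were fitted. Nothing is read from these counts, since the same contrasts chose the members.

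Et_8B_059382 ranked first. Its level was 5.89, 3.8005, 5.41 and 5.4003 CPM in LCR S1 to S4 and 28.8, 24.5, 25.7 and 21.7 CPM in ConR S9 to S12. In shoots it was 1.39, 4.47, 2.13 and 2.21 CPM in LCS S5 to S8 and 18.4, 27.8, 13.5 and 46.4 CPM in ConS S13 to S16. Control libraries were therefore far above low calcium libraries in both tissues. With 0.5 CPM added to both means, the fall was 4.57 times in roots (ratio 0.219) and 8.85 times in shoots (ratio 0.113). Without it the fall was larger, from 25.2 to 5.13 CPM in roots and from 26.5 to 2.55 CPM in shoots. The 4 control shoots spread widely around their mean of 26.5 ± 14.5 CPM (SD, n = 4), with S16 the highest.

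Et_8B_059381, whose identifier is the preceding number, came next at a much lower level. It had 0.701 ± 0.295 CPM in LCR against 3.79 ± 0.357 CPM in ConR, and 0.394 ± 0.0887 CPM in LCS against 3.68 ± 1.97 CPM in ConS. These levels rest on few reads, from 3 to 9 counts in the 8 low calcium libraries and from 29 to 99 in the 8 control libraries. Its 4 control shoots had the same order as those of Et_8B_059382, with 2.49, 3.96, 1.93 and 6.35 CPM in S13 to S16.

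Et_8B_059295 was the third of the ranking and well expressed. It had 23.6, 38.2, 43.0 and 37.6 CPM in LCR S1 to S4, and 84.3, 115, 61.7 and 132 CPM in ConR S9 to S12. In shoots it had 119, 56.4, 119 and 43.3 CPM in LCS S5 to S8, and 242, 204, 196 and 188 CPM in ConS S13 to S16. The LCS libraries fell into a higher pair, S5 and S7, and a lower pair, S6 and S8.

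Et_1B_012252 was higher in roots than in shoots. Its means were 34.1 ± 6.37 CPM in LCR, 96.2 ± 13.1 CPM in ConR, 16.5 ± 2.42 CPM in LCS and 40.5 ± 13.4 CPM in ConS. Its margin in shoots was small, since ConS S15 with 20.7 CPM stood just above LCS S5 with 19.8 CPM, whereas the other ConS libraries had 45.0 to 50.7 CPM.

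Et_6A_046491 had 1.27, 1.13, 0.885 and 0.675 CPM in LCR S1 to S4 against 3.20, 2.66, 2.95 and 3.02 CPM in ConR S9 to S12. In shoots it had 1.74, 1.39, 1.45 and 0.803 CPM in LCS S5 to S8 against 6.33, 6.63, 6.64 and 4.49 CPM in ConS S13 to S16. The groups were well apart in both tissues, with ratios of 0.431 and 0.283, at 6 to 20 counts in the low calcium libraries.

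Et_4B_037643 showed the reverse of Et_8B_059382, with the larger fall in roots. It had 4.46, 5.75, 8.75 and 5.63 CPM in LCR S1 to S4 against 22.7, 31.7, 14.8 and 43.9 CPM in ConR S9 to S12. With 0.5 CPM added to both means, the root level was 4.33 times lower. In shoots it was 2.25 times lower on the same measure, at 12.8 ± 3.59 CPM in LCS against 29.4 ± 6.78 CPM in ConS. The lowest control root was S11 and the highest low calcium root was S3.

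The members' control levels covered a wide range, with medians above those of all genes at 2 CPM or more. In ConR the members' means ran from 2.07 to 277 CPM with a median of 19.7 CPM, and in ConS from 2.36 to 484 CPM with a median of 26.8 CPM. Over all genes at 2 CPM or more the medians were 15.99 CPM in ConR and 11.8 CPM in ConS. Both control means were below 10 CPM for 30 members and above 100 CPM for 9, namely Et_2B_020722, Et_4A_032762, Et_6B_049216, Et_4B_036975, Et_8A_058089, Et_3B_030940, Et_4B_038123, Et_1A_007634 and Et_1B_012292. No member was at 0 in any library, and 127 had at least 10 counts in all 16 libraries.

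The member with the highest control level was Et_4B_036975. It had 90.2, 108, 137 and 108.7 CPM in LCR S1 to S4 against 219, 226, 171 and 197 CPM in ConR S9 to S12. In shoots it had 309, 194, 352 and 159 CPM in LCS S5 to S8 against 566, 482, 429 and 457 CPM in ConS S13 to S16. On column sums, roots and shoots thus fell by much the same factor (ratios of 0.547 and 0.524) from very different levels.

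Et_3B_030940 had 174 ± 26.8 CPM in LCR against 277 ± 26.5 CPM in ConR and 240 ± 43.8 CPM in LCS against 372 ± 27.2 CPM in ConS. Et_4A_032762 had 142 ± 22.1 CPM in LCR against 269 ± 40.4 CPM in ConR, and 192 ± 66.4 CPM in LCS against 364 ± 50.1 CPM in ConS. Et_1B_012292 had 77.6 ± 14.1 CPM against 131 ± 26.4 CPM in roots, and 292 ± 68.6 CPM against 445 ± 21.2 CPM in shoots. In shoots each of these abundant members had LCS S5 and S7 above LCS S6 and S8, as Et_8B_059295 had.

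**Figure D2:**
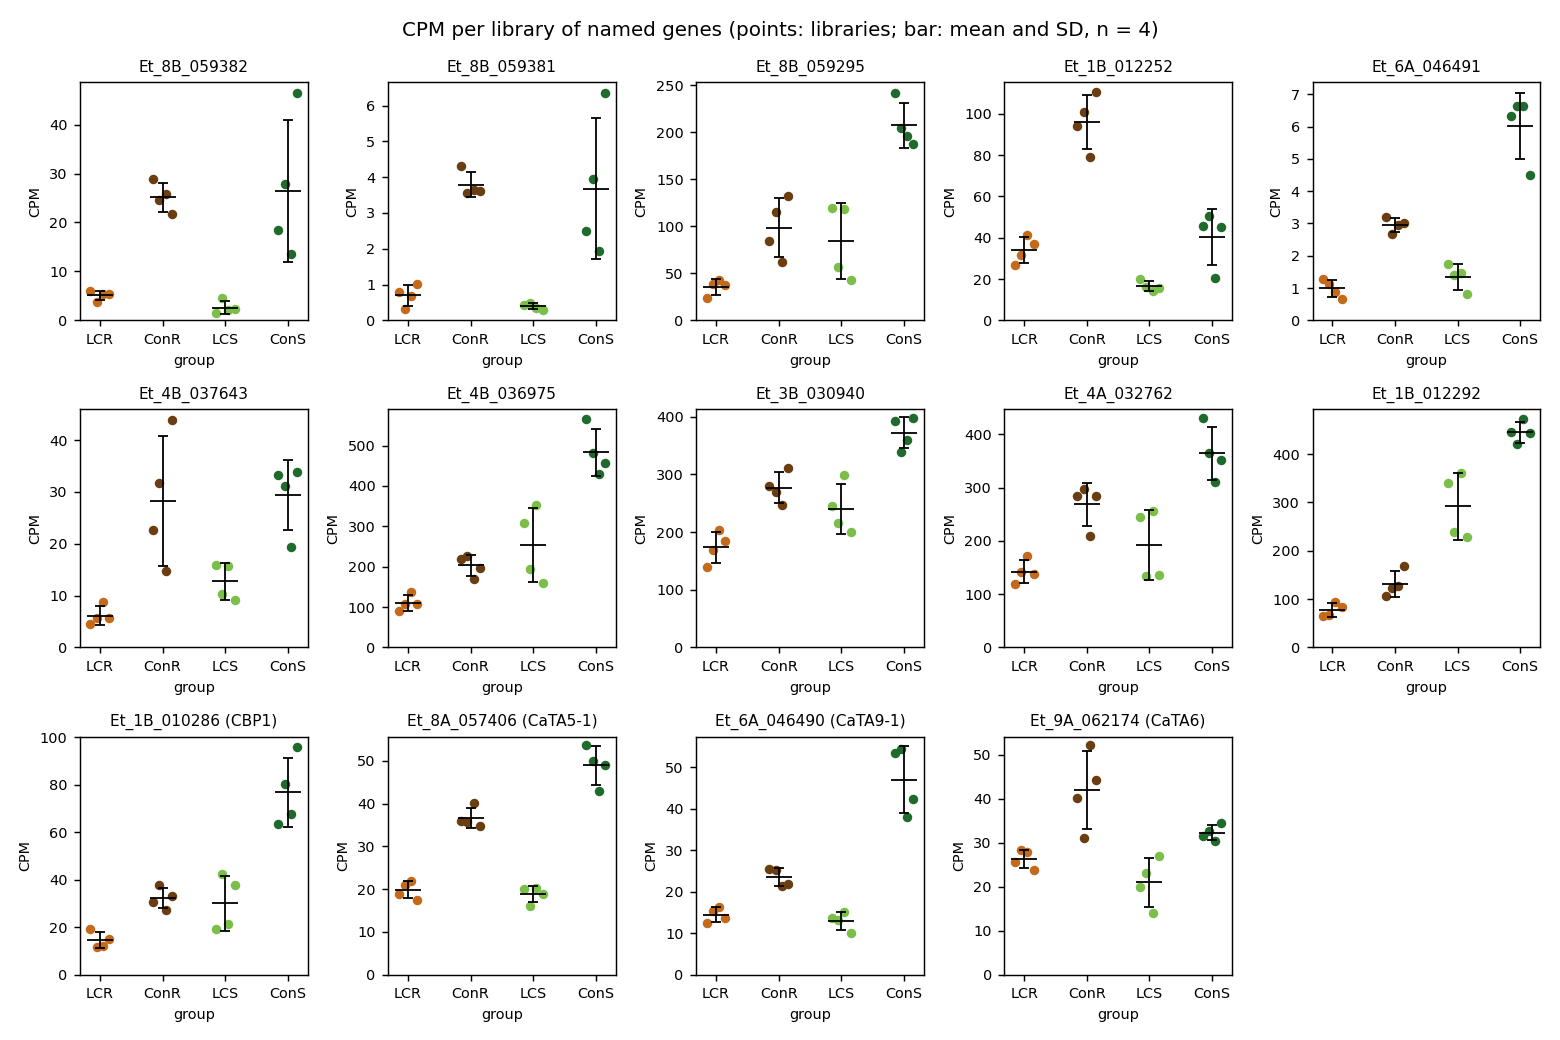
CPM in each library of the 6 highest-ranked members, the 4 most abundant members and the 4 annotated genes that met the rule, in LCR, ConR, LCS and ConS (points), with the mean and SD of the 4 libraries (black). In every panel the low calcium points lie below the control points of the same tissue, as the rule requires, and the margin is narrow in Et_1B_012252, where ConS S15 has 20.7 CPM and LCS S5 19.8 CPM.

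Among the genes that the study annotates, 4 met the rule. They are 3 calcium-transporting ATPases, pumps that move calcium out of the cytosol, and CBP1, a calcium-binding protein. CBP1 (Et_1B_010286) had 19.3, 11.8, 11.9997 and 15.1 CPM in LCR S1 to S4 against 30.8, 37.7, 27.4 and 33.1 CPM in ConR S9 to S12. In shoots it had 19.0, 42.2, 21.5 and 37.7 CPM in LCS S5 to S8 against 63.5, 80.2, 67.8 and 96.1 CPM in ConS S13 to S16, and here LCS S6 and S8 were the higher pair.

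CaTA5-1 (Et_8A_057406) had ratios of 0.547 in roots and 0.391 in shoots, with 19.8 ± 1.98 CPM in LCR against 36.6 ± 2.34 CPM in ConR. CaTA9-1 (Et_6A_046490) had ratios of 0.624 and 0.284, with 14.5 ± 1.79 CPM in LCR against 23.5 ± 2.17 CPM in ConR. CaTA6 (Et_9A_062174) had ratios of 0.633 and 0.655, with 26.4 ± 2.09 CPM in LCR against 41.9 ± 8.86 CPM in ConR. CaTA5-1 and CaTA9-1 thus had the lower ratio in shoots, and the ratios of CaTA6 were close to each other.

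The annotated genes, 34 calcium transporters, 35 calcium signalling genes, 11 cyclic nucleotide-gated channels, 10 glutamate receptor-like genes and 19 metal transporters, were chosen by the study on these samples, so their counts are not independent evidence of a direction. Of these, 92 reached 2 CPM in both control groups. By edgeR 13 were lower and 4 higher in LCR than ConR, where 1.34% and 1.9% of all genes tested were. In LCS against ConS 33 were lower and 15 higher, where 9.05% and 16.7% of all genes tested were. Both contrasts called 6 of the annotated genes lower, which was so for 0.444% of all genes tested and 0.978% of the genes at 2 CPM or more. These were the 4 genes above, CaTA5 (Et_1A_007426), whose LCS and ConS libraries overlapped, and the cyclic nucleotide-gated channel CNGC1-1 (Et_1A_007771), whose shoot ratio of 0.699 was over the limit. In roots the edgeR adjusted p was not far below 0.05 for CaTA6 (0.0409), CaTA9-1 (0.0408) and CNGC1-1 (0.0352). It was 0.00158 to 0.0182 for the others.

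The members' CPM summed to 2623, 2970, 3519 and 3085 in LCR S1 to S4 and to 5393, 5255, 5362 and 5814 in ConR S9 to S12. In shoots the sums were 4864, 3593, 5593 and 3310 in LCS S5 to S8 and 8887, 7703, 7875 and 7532 in ConS S13 to S16. The low calcium libraries of a tissue were all below its control libraries, which the rule fixes for each member. What the rule does not fix is the order of the libraries within a group, and this was uneven. LCR S3 was the highest LCR library for 63.0% of members (45.5% of all genes at 2 CPM or more), and LCR S1, the shallowest library, was the lowest for 61.0% (44.4%). ConR S11 was the lowest ConR library for 52.1% of members (43.6%).

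In LCS the libraries fell into pairs. S5 and S7 were both above S6 and S8 for 106 of the 146 members (72.6%), which was so for 20.4% of the genes at 2 CPM or more. The opposite order held for 3 members (2.05%) and for 25.4% of the genes at 2 CPM or more. S5 and S7 were also the deeper libraries, with 11498765 and 11720368 counts against 10065478 in S6 and 9959542 in S8. The part of depth in this order was not tested. With counts thinned to the smallest total the median log2 ratio of the members was -0.77 in roots and -0.79 in shoots, against -0.78 and -0.80 with full counts. Thinning leaves the expected CPM unchanged, so these medians could hardly move, and they do not bear on the order within LCS. The variation within LCS was the largest of the 4 groups, with a median coefficient of variation per member of 24.9%, compared with 18.9% in LCR, 15.7% in ConR and 15.2% in ConS. Over the genes at 2 CPM or more it was also the largest, but by little, at 20.9%. There it was 15.8% in LCR, 17.7% in ConR and 19.8% in ConS.

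**Figure D3:**
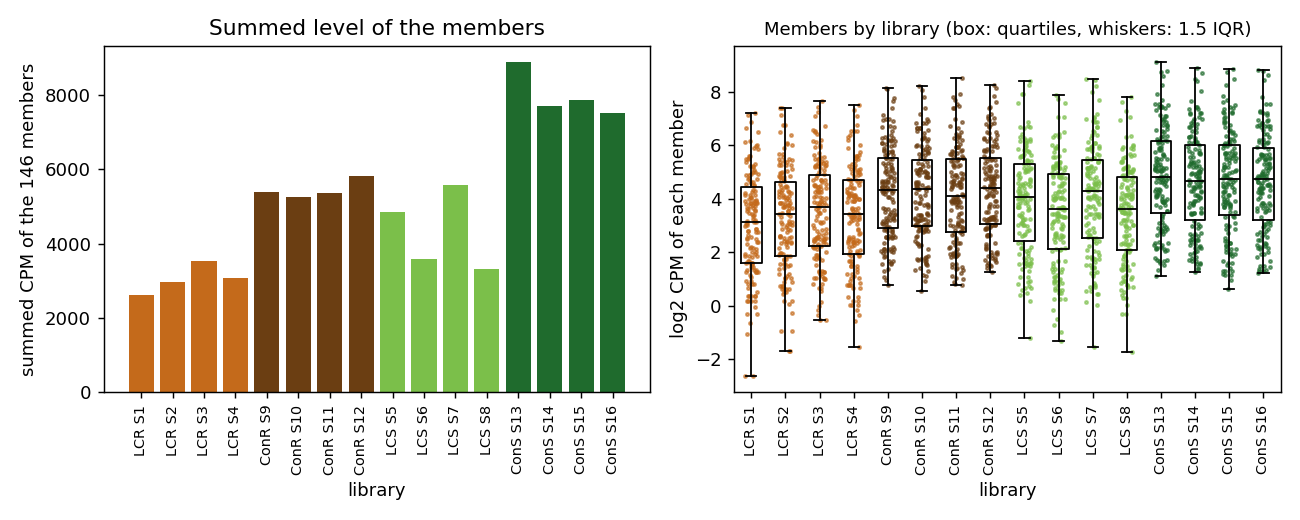
Summed CPM of the 146 members in each library (left, bars) and the log2 CPM of each member by library (right, points with median, quartiles and whiskers to 1.5 interquartile ranges). Sums are 2623 to 3519 in LCR and 5255 to 5814 in ConR, and in LCS the sums of S5 (4864) and S7 (5593) stand above those of S6 (3593) and S8 (3310).

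The rule was also applied to 15 libraries at a time, and the library left out was then examined. The 4 libraries of the other calcium level with which it is compared took part in choosing the genes, which by itself lifts its shares over those of all genes, so the latter are given for scale only. The lists chosen in this way held 125 to 147 genes. For 12 of the 16 libraries, between 85.5% and 99.3% of the chosen genes had the left-out library beyond all 4 libraries of the other calcium level in its tissue, in the direction of the list. In roots these shares were 95.7% for LCR S1, 98.6% for S2 and 94.5% for S4, where 42.9%, 34.9% and 31.6% of all genes at 2 CPM or more were so, and 97.3% for ConR S9, 93.2% for S10 and 94.5% for S12, where 34.2%, 35.9% and 44% were. In shoots they were 87.8% for LCS S5, 96.0% for S6 and 97.8% for S8 beside 20%, 32% and 23.9%, and 99.3% for ConS S13, 91.8% for S14 and 85.5% for S15 beside 30.5%, 24.7% and 19%.

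The other 4 libraries gave lower shares. LCR S3 was below all 4 ConR libraries for 90 of 147 genes (61.2%, against 18.3% of all genes at 2 CPM or more), and ConR S11 was above all 4 LCR libraries for 77 of 147 (52.4%, against 30.9%). ConS S16 was above all LCS libraries for 104 of 147 (70.7%, against 32.7%), and LCS S7 below all ConS libraries for 108 of 146 (74.0%, against 20.8%). The size of the fall was also smaller in them. The median log2 ratio to the other calcium level was -0.48 for LCR S3 where the other 3 LCR libraries gave -0.87, and 0.38 for ConR S11 where the other 3 ConR libraries gave 0.89. The other 3 libraries took part in choosing these genes and the left-out library did not, which by itself widens this difference.

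**Figure D4:**
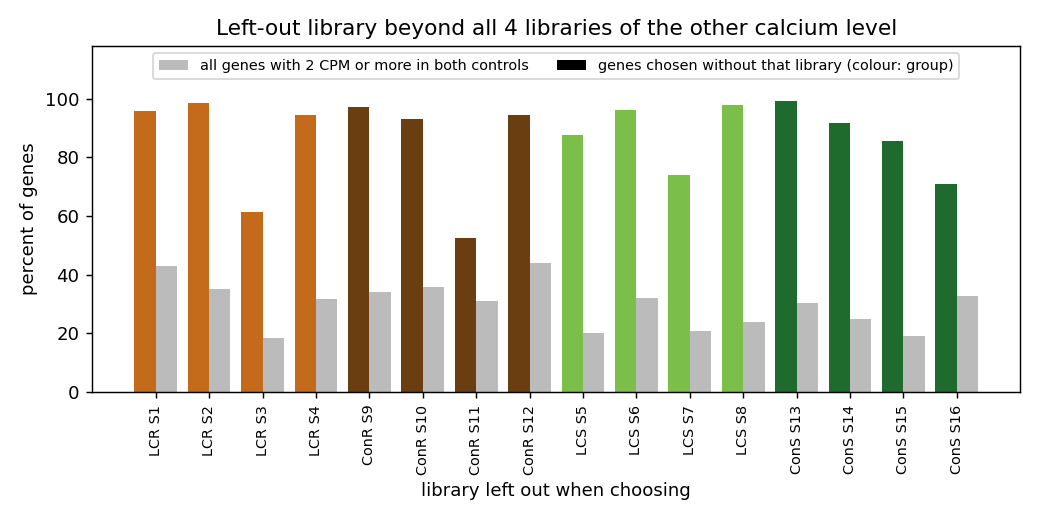
Percent of genes for which the library left out of the choice lay beyond all 4 libraries of the other calcium level in its tissue, for genes chosen without that library (coloured by group) and for all genes with 2 CPM or more in both control groups (grey). The coloured bars are lowest for ConR S11 (52.4%) and LCR S3 (61.2%), and the grey bars are for scale only, since the libraries compared with also chose the genes.

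The rule compared calcium levels within a tissue and did not compare roots with shoots. The control values did enter its floor of 2 CPM, its separation of libraries and its ratios. The members' control medians were 19.7 CPM in ConR and 26.8 CPM in ConS, against 15.99 and 11.8 CPM for the genes at 2 CPM or more. Those genes were not matched to the members for abundance, so the part of the choice itself in the division below was not tested. In ConR against ConS, 98 of 146 members (67.1%) were lower in roots and 12 (8.22%) were higher (edgeR, adjusted p below 0.05 over all genes). Over all genes tested 23.7% were lower and 28.7% higher in roots, and over the genes at 2 CPM or more in both control groups 30.5% and 24.5%. The median log2 fold change was -0.90 for the members and -0.09 for the genes at 2 CPM or more. With the TMM scaling of this fit, most members were thus called more abundant in shoots than in roots. Leaving out any library gave 91 to 100 members lower and 8 to 13 higher.

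The scaling matters for these counts. TMM factors were 1.16 to 1.22 in ConR and 0.688 to 0.844 in ConS, which moves root over shoot by -0.60 on the log2 scale relative to column sums. With column sums alone, chosen as an alternative after seeing the data, 57 members were lower and 25 higher in ConR, where the genes at 2 CPM or more gave 16.3% lower and 49.8% higher. The members' median was then -0.29 and that of the genes at 2 CPM or more 0.51. Under either scaling the members' median lay below that of the genes at 2 CPM or more, while the number called depended on it. Read directly in CPM, all ConR libraries lay below all ConS libraries for 61 members and above them for 24, where 14.9% and 44.8% of the genes at 2 CPM or more were so.

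At low calcium the division was similar. In LCR against LCS 83 members were lower in roots and 12 higher, against 22.7% and 20% of all genes tested and 25.6% and 18.2% of the genes at 2 CPM or more. The members' median log2 fold change was -0.71. At both calcium levels 81 members were called lower in roots and 9 higher, beside 22% and 15.2% of the genes at 2 CPM or more, and 31 were called at neither, beside 38.6%. No member was called in opposite directions at the 2 levels, and 0.235% of the genes at 2 CPM or more were. With column sums alone 55 were lower and 25 higher, beside 16% and 36.5% of the genes at 2 CPM or more.

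**Figure D5:**
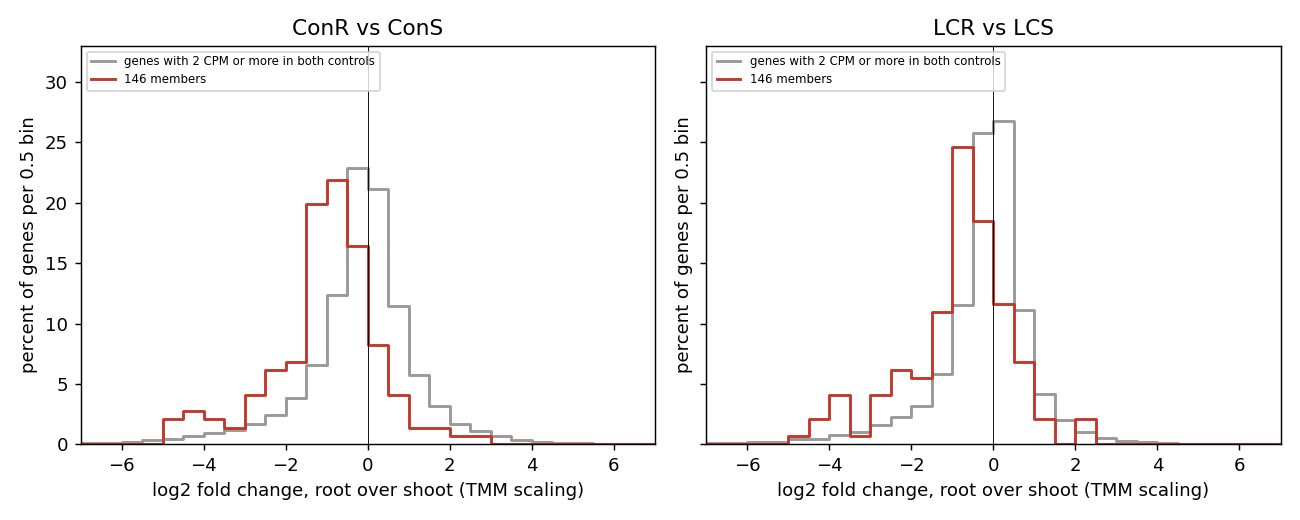
Distribution of the log2 fold change of roots over shoots (TMM scaling, bins of 0.5) at control calcium (left) and low calcium (right) for the 146 members (red) and for genes with 2 CPM or more in both control groups (grey). The members lie to the left of the other genes, with medians of -0.90 at control and -0.71 at low calcium.

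The strongest preference for shoots among the members was that of Et_3A_023055, with 2.56, 3.34, 2.74 and 4.49 CPM in ConR S9 to S12 and 80.9, 57.6, 46.6 and 47.5 CPM in ConS S13 to S16. Its log2 fold change was -4.74 (SE 0.33, edgeR adjusted p = 7.43e-10), and every root library was below every shoot library. Et_6A_048176 was close to it, with 9.20 ± 0.942 CPM in ConR against 160 ± 12.4 CPM in ConS. Its log2 fold change was -4.73 (SE 0.31, edgeR adjusted p = 3.19e-10). Both were higher in shoots at low calcium as well (edgeR adjusted p = 5.41e-09 and 5.02e-09), with 1.62 ± 0.361 CPM in LCR and 27.2 ± 11.9 CPM in LCS for Et_3A_023055 and 5.81 ± 1.23 CPM and 64.5 ± 28.9 CPM for Et_6A_048176.

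The strongest preference for roots was that of Et_4B_037247, with 59.4, 57.4, 38.9 and 62.7 CPM in ConR S9 to S12 and 6.87, 6.35, 3.92 and 4.43 CPM in ConS S13 to S16. Its log2 fold change was 2.74 (SE 0.25, edgeR adjusted p = 2.69e-08). Under low calcium its roots had 14.2, 19.5, 37.5 and 21.4 CPM, so that LCR S3 reached nearly the level of ConR S11 (38.9 CPM). Et_1A_006372 had 39.2 ± 4.11 CPM in ConR against 4.99 ± 0.777 CPM in ConS, and its log2 fold change was 2.38 (SE 0.20, edgeR adjusted p = 8.94e-09).

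The 12 members called higher in ConR had a median ratio of 0.480 in roots and 0.606 in shoots, and the 98 called lower had 0.583 and 0.553. The 36 members called in neither direction had 0.592 and 0.601. Their median levels were 13.7 CPM in ConR against 10.7 CPM in ConS, where the 98 had 19.7 and 37.2 CPM and the 12 had 48.8 and 9.11 CPM. These ratios come from the contrasts that chose the members and are given without a test.

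By their identifiers, 79 members were on the A subgenome and 67 on the B subgenome (54.1% on A), and among the genes at 2 CPM or more 49.8% were on A. Chromosomes 4A and 4B together held 35 members (24.0%), with 21 on 4A, and 15.2% of the genes at 2 CPM or more. On 1B there were 6 members (4.11%, against 8.14%). Members were found on both copies of every chromosome, and none was on unplaced sequence. These shares are descriptions and were not tested.

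Some members carried neighbouring identifier numbers. There were 8 pairs of members on the same chromosome with numbers 5 or less apart, covering 16 members, and in 5 of them the numbers were consecutive. In the pair Et_4A_032762 and Et_4A_032763 the first had 3.79 to 4.48 times the CPM of the second in all 16 libraries, so this ratio changed little across tissue and calcium. The ratio was less even in other pairs. It was 2.64 to 7.50 over the libraries for Et_6A_048176 over Et_6A_048177, and 4.10 to 30 for Et_7A_051189 over Et_7A_051192. For Et_4A_032438 over Et_4A_032439 the group means gave 1.402 in LCR and 1.52 in ConR but 0.687 in LCS and 0.734 in ConS. The pairs Et_3B_027678 with Et_3B_027679, Et_4A_032981 with Et_4A_032984 and Et_4B_036928 with Et_4B_036931 had libraries from 0.902 to 5.65 in this ratio. For Et_8B_059381 over Et_8B_059382 the ratio of group means was 0.137 in LCR, 0.151 in ConR, 0.154 in LCS and 0.139 in ConS. Over the libraries it ran from 0.0811 to 0.3125, and Et_8B_059381 had only 3 to 9 counts in the low calcium libraries. The member Et_6A_046491 follows CaTA9-1 (Et_6A_046490) in number. It had 0.991 ± 0.265 CPM in LCR against 2.96 ± 0.225 CPM in ConR. In shoots it had 1.35 ± 0.393 CPM in LCS against 6.02 ± 1.03 CPM in ConS. Its root ratio of 0.431 was below the 0.624 of CaTA9-1, and its shoot ratio was 0.283 beside 0.284. The 0.5 CPM added to both means weighs more on the rarer gene. Without it, CaTA9-1 had 7.81 times the mean of Et_6A_046491 in ConS and 9.66 times in LCS. Of the 126 genes at 2 CPM or more whose number was next to that of a member, 48.4% had both ratios below 1, and 38.0% of all genes at that level did. Reads of copies with near-identical sequence, and of overlapping genes, may have been split or lost in the counting, so these pairs are uncertain as separate genes.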

How the data were processed

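RNA of roots and shoots was sequenced in 16 libraries. The authors checked the reads with FastQC, trimmed them with sickle, aligned them with hisat2 to the tef draft genome and ran htseq-count in reverse-strand mode, which leaves out multiply mapped reads. They deposited whole-number counts without normalization. The methods name no directional library kit, so reads of overlapping genes on opposite strands may not be told apart.

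The members and the gene lists were chosen with earlier results of these data known. CPM on column sums was used for levels and for the rule. Tests were run in R 4.3.3 with edgeR 4.0.16 (TMM, estimateDisp, glmQLFit, glmQLFTest, a term per group over 16 libraries) on 56746 genes with a count in at least 4 libraries, with Benjamini-Hochberg adjustment over all of them. The study used DESeq2. Fold changes of members between tissues are from the TMM-scaled fit. P-values set the difference between groups against the spread between libraries, which was estimated over all 4 groups with information shared across genes. Counts carry sampling error, and the reads have no molecular identifiers.

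Alternatives were DESeq2 1.42.0, limma-voom (limma 3.58.1), DESeq2 size factors, no filter, filterByExpr, an adjusted p below 0.01, the 8 libraries of a comparison, thinned counts, a floor of 1 or 5 CPM, a pseudocount of 0.1, and each library left out. Column sums in edgeR were added after seeing the data. The edgeR steps and the rule were tested on simulated data.

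Genes named were the 6 members with the smallest larger ratio, the 4 most abundant in controls, the 2 most root-preferring and 2 most shoot-preferring members called in ConR vs ConS, the genes on either side of the limit of 150, every annotated gene meeting the rule, and members with identifiers 5 or less apart. CaTA5, CNGC1-1, the members differing by more than 1.5 times between tissues, those above 100 CPM in both controls and the neighbour of CaTA9-1 were singled out after their values were seen. No genome was used.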

Additional observations from a re-analysis of the deposited data

Results flagged for a closer look

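In each of the 4 groups the values of 22 named genes and the summed level of the members were checked for a library far from the other 3, which makes 92 checks, and about 1 in 20 would be met by chance. It was met 4 times. Et_4A_032762 had 209 CPM in ConR S11, against 285 to 297 CPM in the other ConR libraries. Et_4B_037247 had 2.38 CPM in LCS S6, against 3.30 to 3.33 CPM. Et_6A_046491 had 4.49 CPM in ConS S16, against 6.33 to 6.64 CPM. Et_8B_059381 had 4.33 CPM in ConR S9, against 3.57 to 3.66 CPM. These values rest on 70 counts for Et_6A_046491 and 54 counts for Et_8B_059381.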

How the results depend on the processing

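The 154 genes meeting the rule became 310 with TMM-scaled totals and 125 to 218 under the other settings with all libraries, and ranged from 129 to 342 with a library left out, being 342 without LCR S3, 332 without ConR S11 and 237 without LCS S7. Of the 146 members, 97 stayed with DESeq2 size factors, 98 with thinned counts and 104 with TMM-scaled totals. With a library left out 77 to 139 stayed (77 without ConR S11, 90 without LCR S3). DESeq2 size factors and TMM lowered the median log2 ratio of shoots over all genes at 2 CPM or more from 0.04 to -0.15 and -0.16. The median log2 ratio of the members moved by less than the spread between libraries under every setting, between -0.86 and -0.71 (roots) or between -0.99 and -0.72 (shoots).

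The 72 members called lower in LCR vs ConR became 12 at an adjusted p below 0.01 and 128 with the 8 root libraries alone, and 14 to 99 with a library left out (14 without LCR S4, 15 when LCR S1 and 16 when LCR S2 was omitted, 20 when ConR S12 and 30 when ConR S9 or S10 was). In LCS vs ConS 127 to 146 were called. The 12 members higher in ConR than ConS became 7 at an adjusted p below 0.01. On column sums (chosen after seeing the data) 25 were higher and 57 lower in ConR than ConS, and 25 higher and 55 lower in LCR than LCS. In LCR vs LCS 67 to 89 were lower and 9 to 14 higher with a library left out. Of 972 values of single genes under the alternatives, 14 moved by more than the spread between libraries and none changed sign. No paired analysis was possible, because the sample numbers do not show whether a root and a shoot library came from the same plants. The tests between tissues treated all libraries as independent. Depth limits the rarest members, such as Et_8B_059381 with 3 to 9 counts in low calcium libraries, and Et_6A_046743 and Et_4A_031788 had 1 count each in LCR S1.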

Other observations

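CBP1 had LCS S6 (42.2 CPM) and S8 (37.7 CPM) above S5 (19.0 CPM) and S7 (21.5 CPM). This order was shared by 3 of the 146 members and by 25.4% of the genes at 2 CPM or more, and the opposite order by 106 members and 20.4% of those genes. CaTA6 had the same order as CBP1, with 23.1 CPM in S6 and 27.0 CPM in S8 against 19.8 CPM in S5 and 13.99 CPM in S7. CaTA9-1 and CaTA5-1 had S5 above S6 and S7 above S8, but in CaTA9-1 the margin of S5 (13.7 CPM) over S6 (13.1 CPM) was small.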
